A study of Oryza sativa with 12 samples.

Results

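The genes described here had a transcript in wild-type rice culm that remained well above its double-mutant level when either TAC4 or TAC4L was disrupted alone, and stood far lower when both were disrupted. They were chosen from the FPKM values themselves (fragments scaled to gene length and library size, a level per gene length). A gene entered if it had at least 5 FPKM in each of the 9 libraries that were not double mutant, and if its mean over the 3 double-mutant libraries was at least 1 FPKM and at least 4-fold under the lowest of those 9 values. The 3 cellulose synthase loci of the secondary wall, LOC_Os01g54620 (OsCESA4), LOC_Os10g32980 (OsCESA7) and LOC_Os09g25490 (OsCESA9), also met the rule and were left out of the set. That gave 59 genes of 55986 in the table, or of the 9616 genes that held 5 FPKM in all 9 libraries.

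The libraries were made from poly(A) RNA of heading-stage culms, the jointed stems of rice, of the japonica cultivar Zhonghua 11. There were 4 groups of 3, namely unmodified wild type (WT), a line carrying a disrupted TAC4 (LOC_Os02g25230; TAC4-KO), a line carrying a disrupted TAC4L (LOC_Os04g19140; TAC4L-KO), and a line with both disrupted (double-KO). The sample titles speak of knockouts and the genotype field of knockdowns. How many independent lines, plants or tissue pools stand behind each group is not given in the labels, so the p-values cover no more than the variation among these libraries, and that may be technical.

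TAC4 is known in rice as a nuclear protein that acts in shoot gravitropism and tiller angle, and the study concerns culms that break easily when both genes are disrupted. Culm strength rests largely on the secondary wall, the thick inner wall layer of fibres and vessels, whose cellulose is made by plasma membrane complexes of CESA4, CESA7 and CESA9. Rice mutants that lack any of these synthases have brittle culms. Names are a limit here: neither the table nor the reference gene table pairs the locus identifiers with names (0 of 55986 identifiers and 0 of 59 members matched). Most members are therefore given by identifier, with no role. Names were taken from published rice nomenclature for 2 members only, LOC_Os03g43410 (IAA12) and LOC_Os02g44870 (LIP9), and the reference lists both symbols on the chromosome that the identifier states.

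The deposited values showed no loss of the TAC4 transcript. TAC4L lay under 1 FPKM in every library, too low to show a loss or its absence. TAC4 stood at 7.32, 4.75 and 5.59 FPKM in WT, at 13.5, 9.13 and 11.5 in the libraries labelled TAC4-KO, at 9.83, 8.22 and 8.36 in those labelled TAC4L-KO and at 16.5, 15.3 and 13.2 in those labelled double-KO. All mutant libraries lay above all WT libraries. TAC4L stood at 0.883, 0.453 and 0.798 FPKM in WT, at 0.337, 0.515 and 0.282 in TAC4-KO, at 0.64, 0.651 and 0.307 in TAC4L-KO and at 0.527, 0.376 and 0.395 in double-KO, with overlapping groups. Since FPKM is summed over the gene, an edited transcript that is still made counts in full, and groups are called by their labels throughout. Relative sequencing depth was inferred from the commonest ratio to TAC4-KO replicate 2 among FPKM values under 1, taken as 1 fragment against 1 fragment. This estimate ranged 2.58-fold from WT replicate 1 (0.57 of the depth of TAC4-KO replicate 2) to double-KO replicate 2 (1.47). The absolute depth is unknown. In bulk RNA, fewer cells of a type and less RNA per cell cannot be told apart.

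In the double-KO the members lay at low but measurable levels. Their double-KO mean ran from 1.00 to 85.0 FPKM, with a median of 2.22, while their mean over the other 9 libraries ran from 11.1 to 1095 FPKM, with a median of 43.8. The lowest of the 9 values exceeded the double-KO mean by a median of 5.56-fold and by at most 66.4-fold, and 11 members passed 10-fold. In all 59 the highest double-KO library lay under the lowest of the 9, a separation that the choice of members largely fixes. These values chose the members and are a description, with no test.

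**Figure D1:**
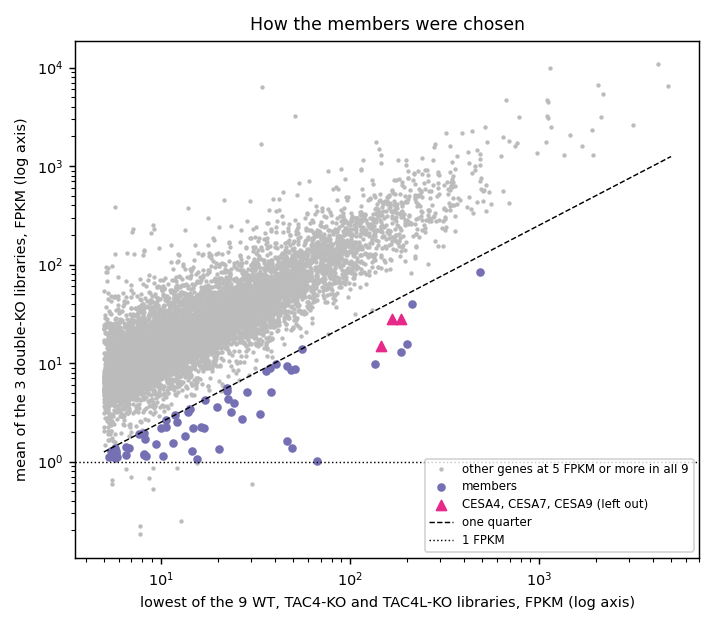
Lowest FPKM among the 9 WT, TAC4-KO and TAC4L-KO libraries (x, log axis) against the mean of the 3 double-KO libraries (y, log axis), 1 point per gene with at least 5 FPKM in all 9. The 59 members lie under the dashed line of the 4-fold limit and above the dotted line at 1 FPKM, and the 3 cellulose synthases lie among the most abundant of them.

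Summed, the members took up a visible part of the culm transcriptome outside the double-KO, much of it through a few abundant genes. Summed over the 59 genes, the members held 6148 to 7843 FPKM in the WT libraries, 2740 to 5998 in TAC4-KO and 5610 to 8333 in TAC4L-KO, against 298 to 358 in double-KO. That was 0.979% to 1.25% of the library total in WT, 0.429% to 0.966% in TAC4-KO, 0.899% to 1.36% in TAC4L-KO and 0.0456% to 0.0554% in double-KO. LOC_Os02g44870, LOC_Os02g48710 and LOC_Os05g09740 alone held 1729, 1251 and 1003 of the 7843 FPKM in WT replicate 1. The 3 double-KO libraries lay close together, and TAC4-KO replicate 3 was the lowest of the other 9.

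The same rule was run with each other group in the place of the double-KO. With the 3 cellulose synthases included, 62 genes stood apart as low in double-KO, compared with 2 in WT, 1 in TAC4-KO and 0 in TAC4L-KO. Turned toward higher values, the rule took 18 genes for double-KO, 62 for WT, 2 for TAC4-KO and 1 for TAC4L-KO. These are counts by labelled group and carry no test.

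The widest gap belonged to LOC_Os06g35970. It stood at 98.8, 97.5 and 66.7 FPKM in WT, at 227, 83.8 and 74.6 in TAC4-KO and at 104, 132 and 122 in TAC4L-KO. In double-KO it stood at 0.0552, 0.726 and 2.23 FPKM, so the mean of 1.00 rested mostly on replicate 3 and only just met the lower limit of the rule. TAC4-KO overlapped WT, and all TAC4L-KO libraries lay above all WT libraries. Neither change passed the test, with log2 changes of 0.38 and 0.46 (SE 0.44 each, limma adjusted p = 0.52 and 0.51).

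LOC_Os06g05550 was the most even of the 10 members with the widest gaps. Its 9 values outside the double-KO spanned only 49.4 to 91.1 FPKM, with 79.4, 91.1 and 52.2 in WT, and its double-KO values were 0.949, 2.31 and 0.865 FPKM. Neither single mutant separated from WT, with log2 changes of -0.21 in TAC4-KO and -0.28 in TAC4L-KO (SE 0.28 each, limma adjusted p = 0.59 and 0.52). LOC_Os04g57970, with 33.3 to 74.4 FPKM in the 9 libraries and 2.1, 1.36 and 5.56 in double-KO, was of the same kind.

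LOC_Os08g38170 stood at 199.5, 227 and 127 FPKM in WT but at 1.54, 1.28 and 2.05 in double-KO, a gap of 28.7-fold to the lowest of the 9 values. The 2 lowest TAC4-KO libraries (46.6 and 51.4 FPKM) lay under every WT library, while the third held 192 FPKM, and TAC4L-KO stood at 237, 498 and 273. LOC_Os05g07060 showed the same split in TAC4-KO, with 181, 20.4 and 24.7 FPKM, beside 137, 101 and 73.3 in WT, 151, 271 and 175 in TAC4L-KO, and only 0.545, 0.964 and 2.55 in double-KO. For LOC_Os04g46830 the WT values were 88.4, 40.4 and 61.8 FPKM, the TAC4-KO values 48.7, 15.6 and 24.0, the TAC4L-KO values 30.7, 36.6 and 47.7, and the double-KO values 2.03, 0.679 and 0.499. Its single mutants overlapped WT at the upper end. LOC_Os02g25960, at 23.1, 27.2 and 15.2 FPKM in WT and at 2.07, 0.978 and 0.769 in double-KO, was the least abundant of the 10 members with the widest gaps.

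The most abundant members remained measurable in the double-KO, where 16 of the 59 had a mean of at least 5 FPKM. LOC_Os02g48710 led the set, at 1251, 1052 and 927 FPKM in WT, at 1004, 767 and 488 in TAC4-KO, at 1603, 1417 and 1348 in TAC4L-KO, and at 51.0, 106 and 98.4 in double-KO. All TAC4L-KO libraries lay above all WT libraries, without passing the test (log2 change 0.44, SE 0.31, limma adjusted p = 0.36). LOC_Os05g09740 stood at 1003, 624 and 511 FPKM in WT, at 806, 224 and 199 in TAC4-KO and at 497, 1136 and 468 in TAC4L-KO, but at 13.9, 15.6 and 17.3 in double-KO. In each single mutant 1 library lay within or above the WT range and the other two lay below it. LOC_Os06g46799 stood at 296, 291 and 187 FPKM in WT, at 334, 290.4 and 225 in TAC4-KO and at 356, 367 and 321 in TAC4L-KO, but at 6.27, 10.6 and 21.6 in double-KO. All its TAC4L-KO libraries lay above WT.

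LOC_Os05g04500 came close to the cellulose synthases in level. It stood at 337, 238 and 233 FPKM in WT, at 554, 136 and 176 in TAC4-KO, at 361, 574 and 419 in TAC4L-KO, and at 10.3, 9.45 and 9.23 in double-KO. OsCESA7, for comparison, stood at 358, 283 and 205 FPKM in WT, at 382, 146 and 159 in TAC4-KO, at 289, 468 and 327 in TAC4L-KO, and at 17.8, 19.1 and 8.26 in double-KO. All TAC4L-KO libraries of LOC_Os05g04500 lay above WT, and in both genes TAC4-KO replicate 1 was more than 2 times either other TAC4-KO library.

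LIP9 (LOC_Os02g44870) encodes a dehydrin, a hydrophilic protein that accumulates in rice under dehydration and cold. It stood at 1729, 1045 and 1001 FPKM in WT, at 338, 758 and 213 in TAC4-KO, at 1872, 959.5 and 347 in TAC4L-KO, and at 34.5, 45.8 and 39.6 in double-KO. The TAC4-KO values lay under all WT values and the TAC4L-KO values reached from above WT to well below it. LIP9 fell in TAC4-KO against WT (log2 change -1.68, SE 0.56, limma adjusted p = 0.036), which no longer passed without any 1 WT library or without TAC4-KO replicate 1 or 3 (log2 change -1.27 without the last). The fall also did not pass with no filter on low values.

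IAA12 (LOC_Os03g43410) belongs to the Aux/IAA proteins, which hold back auxin-responsive transcription until auxin triggers their breakdown. It stood at 27.6, 14.3 and 13.5 FPKM in WT, at 13.8, 16.7 and 12 in TAC4-KO, at 12.1, 13.6 and 7.67 in TAC4L-KO, and at 1.86, 2.96 and 0.886 in double-KO. The groups other than double-KO overlapped, and neither single mutant passed the test (log2 change -0.30 and -0.65, SE 0.32 each, limma adjusted p = 0.49 and 0.21 in TAC4-KO and TAC4L-KO). IAA12 lay only just inside the fold limit, at 4.03-fold.

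**Figure D2:**
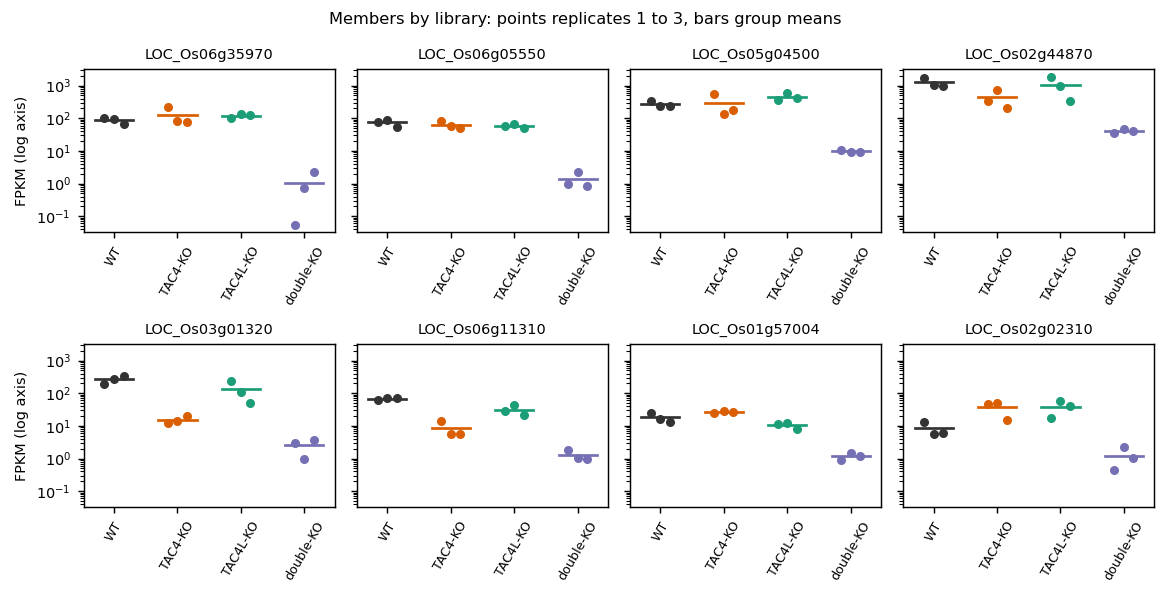
FPKM (log axis) of 8 members in each library, with 3 points per group for replicates 1 to 3 from left to right and a bar at the group mean. LOC_Os06g35970, LOC_Os06g05550 and LOC_Os05g04500 overlap between WT and TAC4-KO, LOC_Os02g44870, LOC_Os03g01320 and LOC_Os06g11310 are already lower in TAC4-KO, and LOC_Os01g57004 and LOC_Os02g02310 are not.

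Near the limit the set had no natural edge, since 14 members lay within 10% of the 4-fold limit. The 3 members nearest to it were LOC_Os02g32610 (4.0-fold), LOC_Os04g35790 (4.01-fold) and IAA12. Just outside were LOC_Os01g06580 (4.0-fold after rounding, and under the limit by less than 1%), LOC_Os01g47400 (3.99-fold) and LOC_Os03g50970 (3.89-fold). LOC_Os01g06580 stood at 53.9, 45.7 and 40.7 FPKM in WT but at 1.23, 2.41 and 11.9 in double-KO. Its double-KO replicate 3 was far above the others. A further 13 genes met every other part of the rule but had a double-KO mean under 1 FPKM.

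Whether the members stayed at their WT level in the libraries labelled as single mutants was asked next, by comparing each single mutant with WT. The rule set the same floor and the same gap to the double-KO mean for WT and both single mutants, and asked for no difference among them. It did leave out any gene with a single-mutant library under 4 times its double-KO mean. The floor and this gap both limit how far a member can fall, and so shape the counts of falls and of members not called. All 59 members passed the filter on low values, as the floor requires. In TAC4-KO against WT, 2 members rose and 13 fell (limma over 19184 genes, adjusted p under 0.05), or 3.39% and 22%, against 18.4% and 16.5% of all tested genes. Called in either direction were 25.4% of members and 34.9% of all tested genes. The other 44 did not pass, which does not show that they held the WT level. On simulated data the fit called 47.4% of 2-fold changes in this comparison. The members' median log2 change was -0.25, with a range of -4.02 to 1.96, beside 0.04 for all tested genes. That median was -0.14, -0.38 and -0.44 without WT replicate 1, 2 and 3, and -0.54 without TAC4-KO replicate 1. The number of rises was 4 without WT replicate 1, 1 without WT replicate 3, 0 without TAC4-KO replicate 1 and 5 without TAC4-KO replicate 2.

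The members were therefore not all held at the WT level in TAC4-KO. The strongest fall was that of LOC_Os03g01320, from 198, 265 and 338 FPKM in WT to 12.2, 14.2 and 20.0 in TAC4-KO, with 236, 105 and 51.1 in TAC4L-KO and at 2.96, 0.978 and 3.58 in double-KO. WT and TAC4-KO were far apart, and TAC4L-KO spread between them (TAC4-KO against WT, log2 change -4.02, SE 0.48, limma adjusted p = 0.00038). TAC4-KO lay 17.3-fold under WT. Double-KO lay 6.17-fold under TAC4-KO, a gap that the rule required to be at least 4-fold.

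LOC_Os06g11310 behaved alike, at 62.9, 71.7 and 70.5 FPKM in WT, at 14.4, 5.69 and 5.48 in TAC4-KO, at 28.2, 44.6 and 21.6 in TAC4L-KO, and at 1.83, 1.06 and 0.95 in double-KO. Its 4 groups did not overlap (TAC4-KO against WT, log2 change -2.99, SE 0.34, limma adjusted p = 0.00031). LOC_Os11g38650 stood at 237, 199 and 342 FPKM in WT, at 75.3, 125 and 56.2 in TAC4-KO, at 137, 117 and 119 in TAC4L-KO, and at 16.4, 10.8 and 14.1 in double-KO. The log2 change in TAC4-KO was -1.63 (SE 0.29, limma adjusted p = 0.0019), and in TAC4L-KO the change just missed the threshold (-1.02, SE 0.29, limma adjusted p = 0.052).

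The 13 members that fell in TAC4-KO lay 2.16-fold to 17.3-fold under WT there. Their TAC4-KO means exceeded the double-KO means by 5.38-fold to 27.5-fold, where the rule itself required at least 4-fold in every TAC4-KO library. In 12 of the 13 the TAC4L-KO mean lay between those of WT and TAC4-KO. LOC_Os02g32610, at 42.1, 102 and 92.8 FPKM in WT, at 29.0, 39.4 and 22.5 in TAC4-KO, at 69.1, 43.6 and 47.4 in TAC4L-KO and at 6.0, 5.42 and 5.48 in double-KO (log2 change -1.29, SE 0.32, limma adjusted p = 0.0096) was also among the 13, as was LOC_Os04g46830 (-1.17, SE 0.41, limma adjusted p = 0.045). The second call was lost without WT replicate 1 or 3, TAC4-KO replicate 2 or 3, TAC4L-KO replicate 2 or double-KO replicate 2 or 3, with a log2 change of -0.80 without TAC4-KO replicate 2. It was also lost with a pseudocount of 0.1, with no filter on low values, or with only the groups compared in the fit.

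The 2 members that rose in TAC4-KO had low WT levels. LOC_Os02g02310 stood at 13.6, 5.81 and 5.88 FPKM in WT, at 46.1, 51.3 and 15.2 in TAC4-KO, at 17.8, 58.7 and 39.4 in TAC4L-KO, and at 0.458, 2.18 and 1.07 in double-KO. Both single mutants lay above WT in every library. The TAC4-KO rise came to a log2 change of 1.96 (SE 0.53, limma adjusted p = 0.014), and was no longer called without TAC4-KO replicate 1 (1.73). LOC_Os01g50750 stood at 13.2, 7.04 and 5.75 FPKM in WT, at 55.1, 15.3 and 27.2 in TAC4-KO, at 13.4, 35.1 and 36.1 in TAC4L-KO, and at 1.24, 1.29 and 0.743 in double-KO. It rose in TAC4-KO too (1.69, SE 0.46, limma adjusted p = 0.016), which no longer passed without WT replicate 3 (1.47) or TAC4-KO replicate 1 (1.23).

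**Figure D3:**
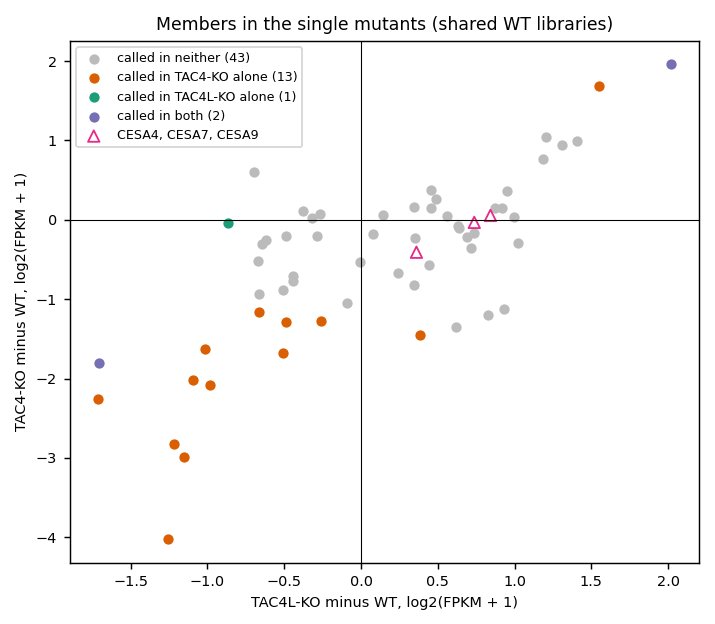
Change of each of the 59 members in TAC4L-KO against WT (x) and TAC4-KO against WT (y), both as differences of mean log2(FPKM + 1), with colour for the limma calls and triangles for the left-out cellulose synthases. Both axes share the WT libraries. The members called in TAC4-KO mostly lie below 0 on the y axis, down to -4.02, while the cellulose synthases lie between -0.41 and 0.06 on that axis.

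In TAC4L-KO against WT, 1 member rose and 2 fell, or 1.69% and 3.39%, against 3.68% and 3.5% of all tested genes, and 56 did not pass. In either direction it was 5.08% of members and 7.18% of all tested genes. The members' median log2 change was 0.14, beside 0.10 for all tested genes, and both medians were near 0 under median-of-ratios scaling (0.02 and 0.00). The count ranged from 0 to 8 when 1 library was left out. It was 0 without TAC4L-KO replicate 2 (14 members at an unadjusted p under 0.05) or replicate 3 (15 members), and 8 without TAC4L-KO replicate 1. It was 1 without WT replicate 3 or double-KO replicate 1 or 2, and 6 without TAC4-KO replicate 1 or 2.

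LOC_Os03g08360 had closely matching TAC4L-KO values, at 6.75, 6.92 and 6.86 FPKM, beside 14.3, 16.6 and 9.95 in WT, 13, 14.5 and 11.5 in TAC4-KO and 1.52, 1.59 and 0.989 in double-KO. This gene fell in TAC4L-KO with a log2 change of -0.87 (SE 0.20, limma adjusted p = 0.028) and showed no called change in TAC4-KO (-0.04, SE 0.20, limma adjusted p = 0.88). The first call was lost without WT replicate 1 (-0.82) or TAC4L-KO replicate 2 (-0.88) or 3 (-0.87). Between the single mutants it was higher in TAC4-KO (0.83, SE 0.20, limma adjusted p = 0.046), which was lost without any 1 library of TAC4-KO, TAC4L-KO or double-KO (0.75 to 0.91). Both calls were lost with only the groups compared in the fit. The call between the single mutants was also lost with a pseudocount of 0.1, no filter, or a filter at a mean of 5 FPKM.

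LOC_Os01g41120 was called lower in both single mutants. It stood at 56.2, 34.8 and 69.7 FPKM in WT, at 18.1, 14 and 10.9 in TAC4-KO, at 33.6, 8.15 and 12.2 in TAC4L-KO, and at 1.42, 1.37 and 0.817 in double-KO. The log2 changes were -1.80 (SE 0.42, limma adjusted p = 0.0074) in TAC4-KO and -1.70 (SE 0.42, limma adjusted p = 0.036) in TAC4L-KO. The second was lost without WT replicate 1 or 3, TAC4L-KO replicate 2 or 3 or double-KO replicate 1 or 2 (-1.30 without TAC4L-KO replicate 2). That call was also lost with no filter on low values or with only the groups compared in the fit. LOC_Os02g02310 was called higher in TAC4L-KO as well (2.02, SE 0.53, limma adjusted p = 0.043), which was lost without WT replicate 2 or 3, TAC4-KO replicate 1, TAC4L-KO replicate 2 or 3 or any double-KO library (1.65 to 2.02). It was further lost with a pseudocount of 0.1, no filter, median-of-ratios scaling, the replicate number as a block, or only the groups compared in the fit.

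In TAC4-KO against TAC4L-KO, 2 members were higher and 4 lower, or 3.39% and 6.78%, against 1.68% and 1.37% of all tested genes. In either direction it was 10.2% of members and 3.04% of all tested genes. The members' median was -0.52, beside -0.09 for all tested genes, and 48 of 59 had a lower mean log2 value in TAC4-KO. Without TAC4-KO replicate 1 the median was -0.79 and 9 members were called, 1 higher and 8 lower. LOC_Os01g57004 was the clearest on the higher side, at 25.2, 29.3 and 26.8 FPKM in TAC4-KO against 11.3, 12.2 and 8.2 in TAC4L-KO, with 25.6, 15.7 and 13.2 in WT and 0.888, 1.46 and 1.16 in double-KO (log2 difference 1.30, SE 0.23, limma adjusted p = 0.018). That call was lost without TAC4-KO replicate 3 (1.30) or TAC4L-KO replicate 1 (1.35) or 2 (1.40).

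The 4 members lower in TAC4-KO than in TAC4L-KO were LOC_Os01g22336, LOC_Os03g01320, LOC_Os06g11310 and LOC_Os08g38170. Their log2 differences were -1.84, -2.76, -1.83 and -2.03 (SE 0.29, 0.48, 0.34 and 0.47), with limma adjusted p of 0.011, 0.016, 0.02 and 0.044. All 4 calls were lost without TAC4L-KO replicate 2 (-1.78, -2.78, -1.56 and -1.70), and the count over all members was then 0, with 14 at an unadjusted p under 0.05. LOC_Os03g01320, LOC_Os06g11310 and LOC_Os08g38170 also lost theirs without TAC4-KO replicate 3 (-2.95, -1.62 and -1.74), which left 1 call. Without TAC4L-KO replicate 1 there were 2 calls, LOC_Os06g11310 (-1.88) and LOC_Os08g38170 (-2.24) being lost along with LOC_Os01g57004 and LOC_Os03g08360. LOC_Os08g38170 further lost its call without WT replicate 1 or 2 or any double-KO library (-2.03 each) or TAC4-KO replicate 2 (-1.67), or with the replicate number as a block. All 4 calls were also lost with only the groups compared in the fit, and those of LOC_Os06g11310 and LOC_Os08g38170 with no filter on low values.

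Between the extremes, 41 of the 59 members were called in none of these comparisons among WT and the single mutants (69.5%, against 64.2% of all tested genes). The 18 members whose means were ordered WT, TAC4L-KO, TAC4-KO from high to low (30.5%, against 27.5% of genes at the floor) and the 17 ordered TAC4L-KO, TAC4-KO, WT (28.8%, against 17.6%) were the largest classes. The order TAC4-KO, TAC4L-KO, WT held 2 members (3.39%), against 28.0% of genes at the floor. All TAC4L-KO libraries lay above all WT libraries in 17 members (28.8%, against 19.2% of genes at the floor) and below them in 8 (13.6%, against 9.57%). All TAC4-KO libraries lay above all WT libraries in 2 members (3.39%, against 25.2%) and below them in 15 (25.4%, against 21.2%).

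At the median of the members, the single changes did not add up to the double-KO value on the log2 scale. The sum of both single changes had a median of -0.29 over the members (range -5.28 to 3.98), beside 0.16 over all tested genes. Members differed in this, and LOC_Os03g01320 had single changes of -4.02 and -1.26 beside a double-KO change of -6.31. The double-KO stood at a median of -3.24 against WT, -2.95 against TAC4-KO and -3.66 against TAC4L-KO. These double-KO contrasts chose the members, so the gap is given as a description with no test. Their medians over all tested genes were -0.10, -0.12 and -0.20, and moved to between -0.01 and 0.00 under median-of-ratios scaling.

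**Figure D4:**
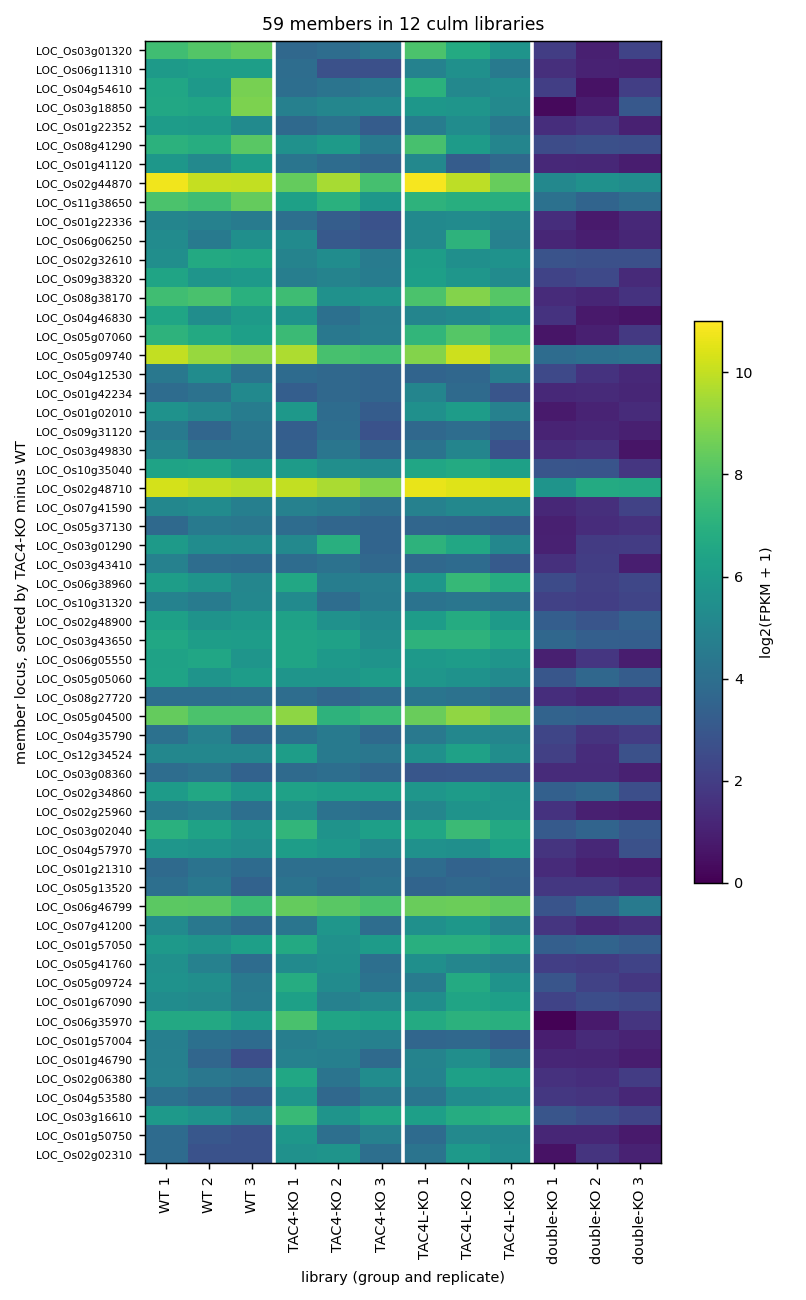
log2(FPKM + 1) of the 59 members (rows, sorted by TAC4-KO minus WT) in the 12 libraries (columns, 3 per group). The double-KO columns are darker than the rest of their row in all 59 rows, whereas the upper rows darken already in TAC4-KO and TAC4-KO replicate 1 is often brighter than replicates 2 and 3.

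The spread among replicates was looked at next. The rule did not ask which library of a group was the highest. It did use the lowest library outside the double-KO, and so acted on the spread. The counts of replicate patterns below are therefore not independent of the choice of members. In the left-out cellulose synthases WT replicate 1, TAC4-KO replicate 1 and TAC4L-KO replicate 2 were the highest libraries of their groups. The same 3 libraries led their groups in 15 of the 59 members (25.4%), against 3.14% of the 9616 genes at the floor. TAC4-KO replicate 1 was at least 2 times both other TAC4-KO libraries in 19 members (32.2%), against 0.957% of genes at the floor. These comparisons were chosen after the values were seen and carry no test. WT replicate 1 was the highest of its group in 34 members (57.6%, against 24.0% of genes at the floor). It was also the shallowest library by inferred depth, and the part of depth was not tested.

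The 15 members that shared this replicate pattern included LOC_Os05g04500, LOC_Os05g07060, LOC_Os05g09740, LOC_Os06g35970 and LOC_Os06g46799, which were among the most abundant members and had some of the widest gaps. Others of the 15 lay near the fold limit, such as LOC_Os05g09724 (4.1-fold) and LOC_Os02g48900 (4.37-fold). LOC_Os06g05550 (36.0-fold) and LOC_Os08g38170 (28.7-fold) had wide gaps without the pattern. Among the 15, 1 fell in TAC4-KO (LOC_Os01g22336) and 0 rose, and their median log2 changes were -0.07 in TAC4-KO and 0.56 in TAC4L-KO. The cellulose synthases stood at 0.06, -0.41 and -0.03 in TAC4-KO and at 0.84, 0.36 and 0.74 in TAC4L-KO (OsCESA4, OsCESA7 and OsCESA9). The other 44 members had medians of -0.44 and -0.35, and 12 of these 44 fell in TAC4-KO, against 16.5% of all tested genes. The 15 were picked by their values, among them a high TAC4-KO replicate 1, which bears on the TAC4-KO mean and its spread. The contrast with the other 44 is therefore a description.

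**Figure D5:**
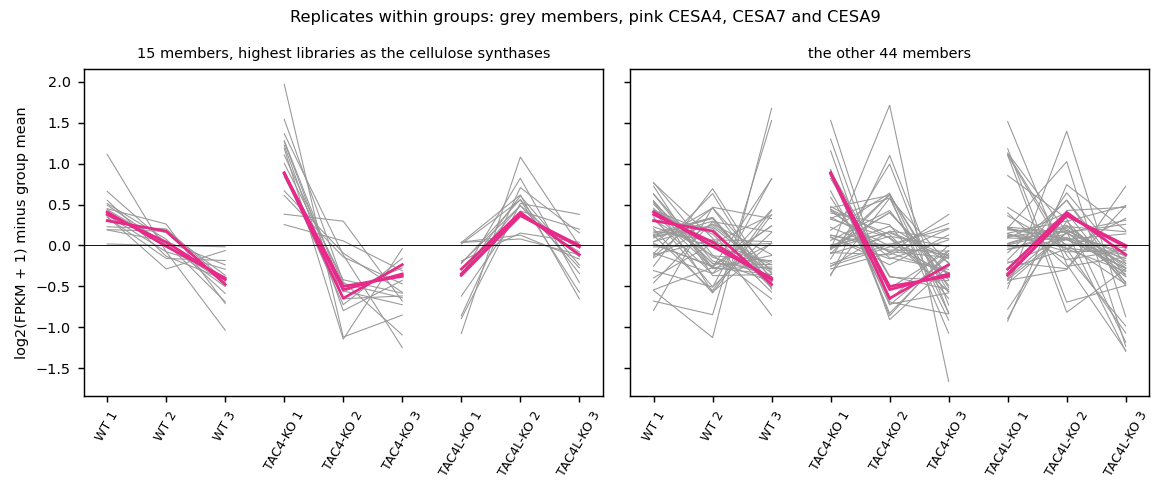
log2(FPKM + 1) minus the mean of its group in the 9 WT, TAC4-KO and TAC4L-KO libraries, with grey lines for members and pink lines for OsCESA4, OsCESA7 and OsCESA9. The 15 members on the left peak in WT replicate 1, TAC4-KO replicate 1 and TAC4L-KO replicate 2 by selection, and the other 44 members on the right vary in other ways.

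The wall lists were looked up among the members next. Of 31 lignin, 7 brittle culm, 7 secondary wall regulator, 6 xylan and mixed-linkage glucan and 6 primary wall cellulose synthase loci on the lists, 0 were members, although 15, 6, 3, 5 and 5 of them held 5 FPKM in all 9 libraries. Members made up 0.614% of all genes at that floor, so a count of 0 among so few loci is not a result about the members. In double-KO against WT, 7 of 24 tested lignin genes were lower and 5 higher, and 3 of 6 tested regulators were lower and 0 higher (limma, adjusted p under 0.05), against 27.3% lower, 20.1% higher and 47.4% in either direction of all tested genes. Of the 6 tested xylan and glucan genes 2 were lower and 1 higher, and of the 7 brittle culm genes 2 were lower and 1 higher. Of the 6 primary wall cellulose synthases 0 were lower and 3 higher, with a median log2 change of 0.67. In TAC4-KO against WT the same lists had 2 lower and 7 higher (lignin), 0 and 2 (regulators), 0 and 1 (xylan and glucan), 1 and 4 (brittle culm) and 0 and 4 (primary wall cellulose synthases, with a median of 1.11). Of 17 auxin response loci (11 at the floor), IAA12 alone was a member. The gibberellin, jasmonate repressor, starch and photosynthesis lists held 0 members, with 5, 2, 7 and 9 loci at the floor. No tiller angle locus was at the floor, so none could be a member. In double-KO against WT, 10 of 14 tested auxin response genes were lower and 3 higher. These counts were 7 and 2 of 11 for gibberellin, 6 and 0 of 7 for jasmonate repressors, 3 and 1 of 4 for tiller angle, and 1 and 5 of 10 for photosynthesis.

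Summed levels of other lists differed between the groups as well. The 16 starch synthesis loci summed to 309 to 343 FPKM in WT, 1368 to 4240 in TAC4-KO, 321 to 626 in TAC4L-KO and 8731 to 9683 in double-KO. Against WT, double-KO had 12 of the 14 tested starch loci higher and 0 lower (limma, adjusted p under 0.05), and TAC4-KO had 9 higher and 0 lower. The 10 photosynthesis loci summed to 3750 to 8068 FPKM in WT, 11191 to 13037 in TAC4-KO, 6047 to 6659 in TAC4L-KO and 6658 to 8404 in double-KO, and none was at 0 throughout. The 6 phloem and sugar transport loci summed to 328 to 409 FPKM in WT, 492 to 921 in TAC4-KO, 332 to 520 in TAC4L-KO and 297 to 577 in double-KO. The 6 cell division loci summed to 232 to 316 FPKM in WT, 228 to 248 in TAC4-KO, 232 to 348 in TAC4L-KO and 121 to 181 in double-KO, where all libraries lay under all others. The 3 cellulose synthases, which mark cells building a secondary wall, summed to 598 to 1039 FPKM in WT, 501 to 1375 in TAC4-KO, 1008 to 1657 in TAC4L-KO and 38.0 to 92.7 in double-KO. The part of these shifts in the members' values was not tested.

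The members were spread over all 12 chromosomes, as the locus identifiers state them. Chromosome 1 held 11 (18.6%, against 14.1% of genes at the floor), chromosome 3 held 9, chromosomes 2 and 5 held 8 each, and chromosomes 11 and 12 held 1 each. LOC_Os01g22336 and LOC_Os01g22352 were the only members next to each other in the locus order of the table. LOC_Os01g22336 stood at 30.8, 27.8 and 22.7 FPKM in WT, at 15.1, 8.52 and 5.83 in TAC4-KO, at 36.5, 38.8 and 31.4 in TAC4L-KO, and at 1.72, 0.718 and 1.43 in double-KO. LOC_Os01g22352 stood at 66.8, 62.1 and 37.1 FPKM in WT, at 12.5, 16.4 and 8.23 in TAC4-KO, at 23.4, 39.6 and 20.2 in TAC4L-KO, and at 1.74, 2.31 and 1.04 in double-KO.

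Both neighbours fell in TAC4-KO, by log2 changes of -1.46 and -2.08 (SE 0.29 and 0.32, limma adjusted p = 0.0032 and 0.0011). In TAC4L-KO the first lay at or above WT and the second mostly below it, with changes of 0.38 and -0.99 that did not pass (limma adjusted p = 0.39 and 0.077). Neighbouring genes can be near-identical copies that share reads, and with no sequence or strand setting given, their levels remain uncertain. LOC_Os03g01290 and LOC_Os03g01320 were separated by 1 locus, and the pairs LOC_Os01g57004 with LOC_Os01g57050 and LOC_Os05g09724 with LOC_Os05g09740 by 3 loci each.

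Within the double-KO the replicates differed by a median of 1.79-fold from highest to lowest, and by at least 4-fold in 7 members. The most uneven was LOC_Os06g35970 at 40.4-fold. The set also depended on single libraries at its edge. TAC4-KO replicate 3 held the lowest of the 9 values in 23 members, and in 11.9% of genes at the floor. Left without it, the rule took 93 genes, including all 59. Members were lost when a double-KO library was left out. Of the 59, 52 remained without double-KO replicate 1, and 46 without replicate 2 or without replicate 3.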

How the data were processed

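Per the submitters' processing notes, the authors aligned reads with HISAT2 (no version). For the quantifier, genome build, annotation and use of strand, nothing is given in the sources used here. The deposited table held FPKM values, 1 column per library, and each column name matched the library name of 1 sample. No counts were used, so no counting intervals are given.

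The members and lists were chosen with earlier results of these data known. Differences among WT, TAC4-KO and TAC4L-KO were tested with limma 3.58.1 (R 4.3.3, trended prior) on log2(FPKM + 1), in 19184 genes that averaged 1 FPKM or more, with all 12 libraries in 1 fit (8 residual degrees of freedom). Fold changes on that scale understate the change of low genes. P-values were adjusted by Benjamini-Hochberg over all tested genes. The fit was first checked on simulated data. It called 47.4% of 2-fold changes in TAC4-KO against WT, 35.7% in TAC4L-KO against WT and 35.1% in TAC4-KO against TAC4L-KO. For 4-fold changes these shares were 85.7%, 90.6% and 78.6%. The comparison of replicate patterns was added after the values were seen.

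Named members were those on a list, the 10 most abundant, the 10 with the widest gap, the 3 nearest each side of the fold limit, up to 4 called members per direction and comparison, and adjacent loci. LIP9 falls under the rule by its level, and its name was added after its values were seen, as were LOC_Os03g01290, LOC_Os01g57050 and LOC_Os05g09724.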

Additional observations from a re-analysis of the deposited data

How the results depend on the processing

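The number of members was 59, and 46 under median-of-ratios scaling (45 of them shared), 39 under quantile normalization (35 shared), 103 at a 3-fold limit, 35 at a 5-fold limit, 33 with a double-KO mean of at least 2 FPKM, and 52 to 93 with 1 library left out. Only 46 of the 59 were shared without double-KO replicate 2 or without replicate 3, and 52 without replicate 1. With the highest double-KO library in place of the mean there were 42 members, 38 of them shared. The members called in TAC4-KO against WT were 15, and 10 to 17 with 1 library left out, when their median change was -0.54 to -0.14 and the rises 0 to 5. For TAC4L-KO against WT the count was 3, and 1 with no filter, 6 under quantile normalization, 0 with only the groups compared in the fit (23 at an unadjusted p under 0.05 in limma), and 0 to 8 with 1 library left out. In TAC4-KO against TAC4L-KO they were 6, and 3 with no filter, 1 with only the groups compared, and 0 to 9 with 1 library left out. The cause of these shifts was not tested. The replicate numbers did not pair the samples (correlations of deviations of -0.43 to 0.27 over 18 same-numbered pairs, 4 over 0.1). With the replicate number as a block the counts were 16, 3 and 7. With a pseudocount of 0.1 the members' median change in double-KO was -3.77 against WT and -4.0 against TAC4L-KO, in place of -3.24 and -3.66. The median change in TAC4L-KO against WT was 0.02 to 0.23 with 1 library left out, except -0.046 without TAC4L-KO replicate 2. Of 20 changes of named members that were called, 7 kept the call under every alternative (all in TAC4-KO against WT), 13 lost it under at least 1 and 0 reversed. The absolute depth is unknown, so the precision of double-KO values near 1 FPKM cannot be given.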
